A study of Rattus norvegicus with 17 samples.

Results

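Hbb and Hbb-b1, which encode beta-type globin chains, Hba-a3, an alpha-type globin gene, and Alas2, the erythroid form of the enzyme that opens heme synthesis, were followed in tissue of rats treated with NVP-BEZ235 or with vehicle. They are 4 of 14506 genes measured, and were taken by symbol, each through the probe set with exactly 1 gene symbol and the highest mean over all arrays. They were chosen by their measured values in NVP-BEZ235 against control libraries, so their treated and control levels, and their levels at each dose, are given as a description with no test. Comparisons by sex did not enter the choice and were tested.

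NVP-BEZ235 is an oral inhibitor of PI3K and mTOR, the kinases that relay insulin and growth factor signals to protein synthesis and cell growth. The study measured 17 Affymetrix arrays, all from 8-month-old rats of the strain labelled Sprague-Dawley white eye/Wistar-Kyoto. All of them, controls included, were Cdkn1b mutants; Cdkn1b encodes p27Kip1, a brake on the cell cycle. The sample labels call the mutation homozygous, while the series' design text calls the rats heterozygous. Control rats had received 20 mg/kg of PEG, polyethylene glycol (7 libraries, 5 female and 2 male). NVP-BEZ235 was given at 20 mg/kg (6 libraries, 4 female and 2 male) or at 30 mg/kg (4 libraries, 3 female and 1 male), and both doses together are called BEZ235 here. The labels do not say that each library came from a separate animal, so p-values measure the spread between these libraries. The libraries carry title numbers: control libraries are numbered 1 to 7, the 20 mg/kg group has 5 to 10, and the numbers 1 to 4 belong to 30 mg/kg. No number is shared by the doses, so dose and title number cannot be told apart.

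The tissue is labelled pituitary adenoma, whereas the study's title names pheochromocytoma, a tumour of the adrenal medulla. Th and Dbh, enzymes of catecholamine synthesis, averaged 12.29 and 12.32 on the log2 scale over all libraries. Cyp11a1 and Star, steroid synthesis genes of the adrenal cortex, averaged 12.02 and 12.11, while 7 pituitary hormone genes averaged between 3.86 and 5.61. The tissue is therefore called by its libraries only. On each array the median probe set lay between 4.95 and 5.11, the lower quartile between 3.65 and 3.91, and the upper quartile between 6.85 and 7.10.

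Hemoglobin is a tetramer of alpha-type and beta-type chains, each of which holds a heme group. Globin genes and Alas2 are transcribed in erythroid precursors of the bone marrow. Reticulocytes, the youngest circulating red cells, have lost the nucleus and still carry globin mRNA, so whole-tissue RNA usually holds some from blood. In such bulk samples, fewer cells of a type and less RNA per cell cannot be told apart. Cells that transcribe these genes use GATA1, which binds GATA motifs, KLF1, which binds CACCC boxes, and factors at CCAAT boxes.

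The windows around the annotated starts of the 4 genes are shown because they are the stretches in which globin promoters carry these boxes and by which the close copies of a cluster can be compared. They run from 250 bases before to 50 after the start, are taken from RefSeq on GRCr8, and are read 5′ to 3′ on the gene's strand. Capitals mark matches on either strand to the CACCC box, the CCAAT box or the GATAA motif. In the Hbb window a CCAAT match on each strand stands directly beside the other, with no shared base, and gives 1 run of capitals. Hbb lies at chr1:167663672-167663971 on the minus strand, Hbb-b1 at chr1:167643471-167643770 on the minus strand, Hba-a3 at chr10:15816894-15817193 on the minus strand, and Alas2 at chrX:22895200-22895499 on the plus strand.
Hbb: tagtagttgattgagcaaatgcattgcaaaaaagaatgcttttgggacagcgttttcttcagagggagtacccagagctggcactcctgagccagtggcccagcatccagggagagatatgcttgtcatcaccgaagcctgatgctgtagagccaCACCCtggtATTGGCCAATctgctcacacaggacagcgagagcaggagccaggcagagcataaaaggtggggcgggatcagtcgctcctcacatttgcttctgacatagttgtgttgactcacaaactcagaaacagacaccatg
Hbb-b1: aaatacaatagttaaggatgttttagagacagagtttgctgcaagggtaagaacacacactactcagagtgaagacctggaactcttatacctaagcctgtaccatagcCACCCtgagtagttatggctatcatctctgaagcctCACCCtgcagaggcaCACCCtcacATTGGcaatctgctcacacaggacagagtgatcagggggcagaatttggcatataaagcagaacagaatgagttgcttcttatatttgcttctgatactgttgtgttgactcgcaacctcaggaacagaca
Hba-a3: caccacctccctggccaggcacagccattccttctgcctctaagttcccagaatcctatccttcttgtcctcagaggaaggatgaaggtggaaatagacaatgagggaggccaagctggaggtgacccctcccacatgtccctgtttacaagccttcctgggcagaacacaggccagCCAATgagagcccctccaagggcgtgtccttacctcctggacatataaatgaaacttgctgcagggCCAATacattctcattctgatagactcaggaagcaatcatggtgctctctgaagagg
Alas2: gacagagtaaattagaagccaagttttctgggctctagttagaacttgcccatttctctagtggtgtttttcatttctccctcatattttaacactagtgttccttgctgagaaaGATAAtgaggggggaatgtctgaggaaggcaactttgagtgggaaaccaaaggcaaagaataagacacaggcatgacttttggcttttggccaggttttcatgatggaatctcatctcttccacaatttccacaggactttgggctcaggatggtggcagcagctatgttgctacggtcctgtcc

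Both beta-type windows held a CACCC box a short way upstream of a CCAAT box. In the Hbb window CACCC began at -95 and CCAAT at -81, with the other-strand match at -86. The Hbb-b1 window had CACCC at -141, -105 and -90 and CCAAT on the other strand at -81. The Hba-a3 window had CCAAT at -73 and -7 and no match to the other motifs. The Alas2 window had only GATAA, at -135. Of 33469 windows of this length, 54.875% held CACCC, 37.494% held CCAAT and 26.535% held GATAA, so that single matches are common. All 3 motifs stood together in 4.825% of the windows, and in 0 of the 4 shown.

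**Figure D1:**
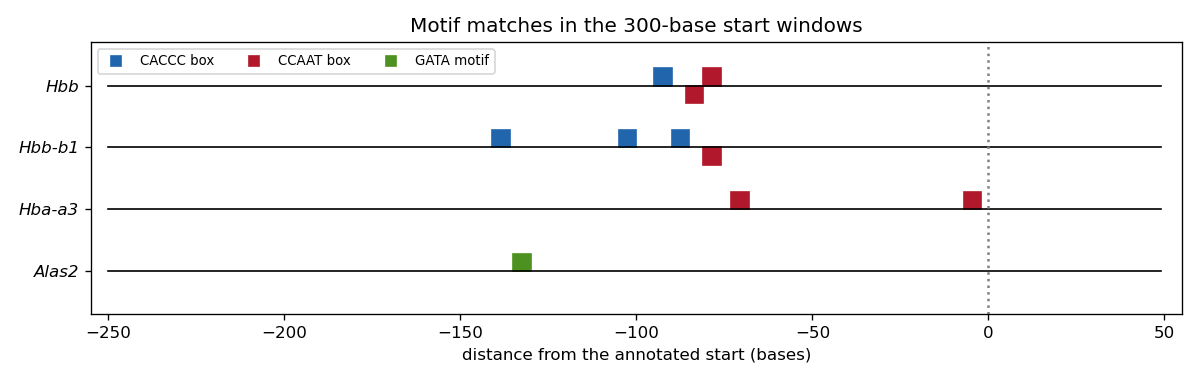
Matches to the CACCC box, the CCAAT box and the GATAA motif in the 300-base windows of the 4 genes, by distance in bases from the annotated start; squares above a line are matches on the gene's strand and squares below it on the other strand. The beta-type windows hold CACCC and CCAAT between -141 and -81, Hba-a3 holds CCAAT at -73 and -7, and Alas2 holds GATAA at -135.

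The globin genes stand in clusters of close copies, which bears on what a probe set can tell apart. In the GRCr8 gene order Hbb-bs, Hbb-b1, Hbbl1, Hbb-b2 and Hbb follow each other on chromosome 1, ahead of Hbg1, Hbe2 and Hbe1, the embryonic and fetal types. The Hbb-b1 window was 98.3% identical to those of Hbbl1 and Hbb-b2 and 95.3% identical to that of Hbb-bs, but 76.0% identical to that of Hbb. On chromosome 10 Hba-a3 lies beside Hba-a2 and Hba-a1, with windows 78.5% and 79.0% identical to its own. The windows lie mostly before the start, so these identities do not measure the likeness of transcripts or probes, which were not compared. Transcripts of globin copies can bind each other's probes, and the values of Hbb and Hbb-b1 are therefore not taken as independent measurements of separate genes.

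Hbb encodes a beta chain of adult hemoglobin. It lay between 9.76 and 11.62 in the 7 control libraries, with a median of 10.18. At 20 mg/kg it lay between 7.73 and 9.86, with a median of 8.81. At 30 mg/kg the libraries numbered 1 to 4 had 5.90, 6.15, 6.45 and 9.41. In 9 of 10 BEZ235 libraries Hbb was below the lowest control. The exception was library 10 at 20 mg/kg. Library 6 at 20 mg/kg (9.50) and library 4 at 30 mg/kg (9.41) stood close under the controls. Hbb averaged 8.14 ± 1.48 in BEZ235 libraries (SD, n = 10) and 10.52 ± 0.74 in control libraries (SD, n = 7). With sex as a term, the difference of BEZ235 minus control was -2.40 ± 0.52 (SE), which is 5.27-fold lower.

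Hbb-b1 followed the same order with less overlap. The control libraries lay between 9.72 and 11.31, with a median of 10.38. The libraries at 20 mg/kg lay between 7.54 and 9.62, with a median of 8.41, and those at 30 mg/kg had 5.21, 5.49, 7.84 and 9.09. All 10 BEZ235 libraries were below the lowest control. Hbb-b1 averaged 7.88 ± 1.48 in BEZ235 libraries (SD, n = 10) and 10.31 ± 0.57 in control libraries (SD, n = 7), a difference of -2.45 ± 0.51 (SE) with sex as a term, or 5.45-fold lower. Of the 4 genes, Hbb-b1 was the one whose groups did not overlap. Over all genes 0.165% had every BEZ235 library below every control library, a share given as background only, since the treated and control values had been used to choose the genes.

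Hba-a3, the alpha-type gene of the 4, had a smaller difference than Hbb and Hbb-b1. This holds for its own probe set only, since further alpha-type probe sets, given below, had larger differences. Hba-a3 lay between 6.71 and 8.72 in control libraries, with a median of 7.13. At 20 mg/kg it lay between 5.23 and 6.53, with a median of 5.85, and at 30 mg/kg it had 4.92, 5.01, 6.86 and 6.998. All 6 libraries at 20 mg/kg were below the lowest control, which 0.448% of all genes showed. That share is background only, since these values had been used to choose the gene. At 30 mg/kg 2 of 4 libraries were below the lowest control. All 4 were so in 2.01% of all genes, which Hba-a3 did not meet, and the share with 2 of 4 was not counted. Libraries 3 and 4 at 30 mg/kg lay within the control range. Hba-a3 averaged 5.88 ± 0.76 in BEZ235 libraries (SD, n = 10) and 7.35 ± 0.65 in control libraries (SD, n = 7). The difference with sex as a term was -1.47 ± 0.32 (SE), or 2.77-fold lower.

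Alas2, whose product makes 5-aminolevulinate for hemoglobin in erythroid cells, lay near the median of the arrays in all groups. It lay between 4.57 and 6.17 in control libraries, with a median of 5.08, and between 4.19 and 4.90 at 20 mg/kg, with a median of 4.62. At 30 mg/kg it had 4.78, 4.82, 4.57 and 5.30. The groups overlapped, and 3 of 10 BEZ235 libraries, all at 20 mg/kg, were below the lowest control. Alas2 averaged 4.70 ± 0.30 in BEZ235 libraries (SD, n = 10) and 5.15 ± 0.53 in control libraries (SD, n = 7), a difference of -0.45 ± 0.20 (SE), or 1.37-fold lower. Without control library 3, the highest, the difference was -0.28. Alas2 exceeded the median of its array in 6 of 17 libraries, and differences between such dim signals are compressed.

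**Figure D2:**
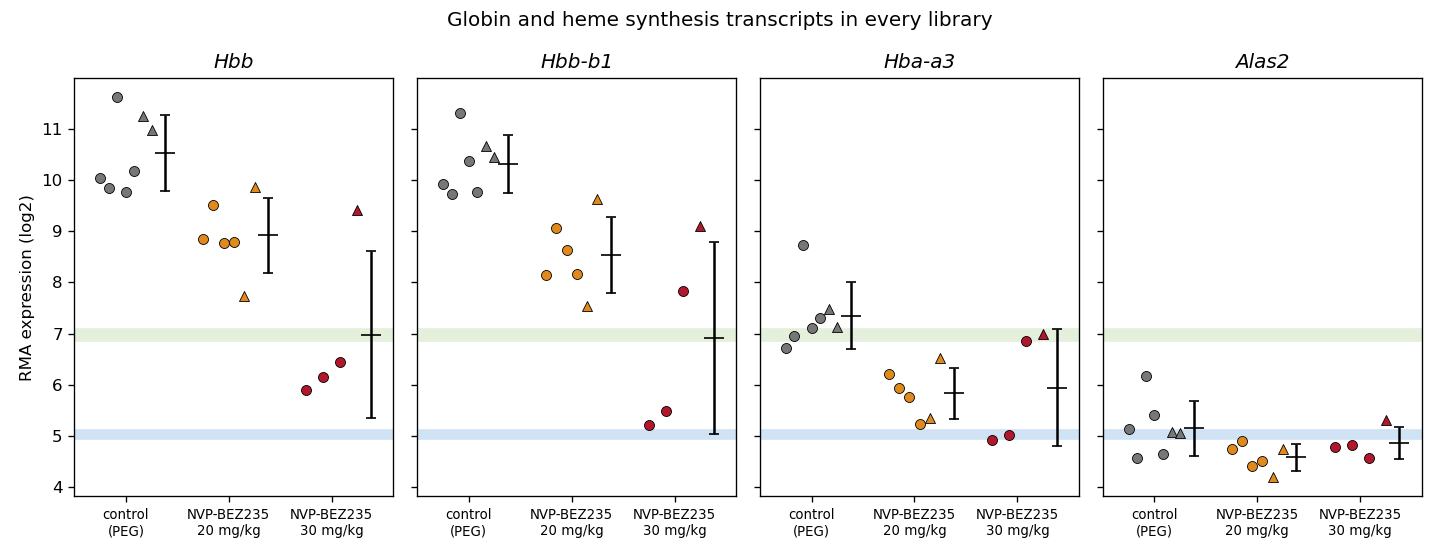
RMA expression (log2) of Hbb, Hbb-b1, Hba-a3 and Alas2 in each library, by dose from control to 30 mg/kg; circles are females, triangles males, bars mean and SD, the blue band is the range of the arrays' medians and the green band that of their upper quartiles. Both beta-type genes have lower means at 20 mg/kg and lower still at 30 mg/kg, where library 4 stays high (9.41 for Hbb), Hba-a3 does not differ in mean between the doses by more than its SE, and Alas2 overlaps between groups.

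Both doses were set against the same 7 control libraries. Hbb differed from control by -1.65 ± 0.45 at 20 mg/kg and by -3.51 ± 0.50 at 30 mg/kg (SE, 3-group fit with sex as a term). Hbb-b1 differed by -1.82 ± 0.49 and -3.38 ± 0.55 at these doses. Hba-a3 differed by -1.53 ± 0.37 at 20 mg/kg and -1.39 ± 0.42 at 30 mg/kg, and Alas2 by -0.57 ± 0.22 and -0.28 ± 0.24. The difference of 30 minus 20 mg/kg was -1.86 ± 0.52 for Hbb and -1.56 ± 0.57 for Hbb-b1, while it was 0.14 ± 0.43 for Hba-a3 and 0.29 ± 0.25 for Alas2, of the size of their SEs. These doses were among the values used to choose the genes, so none of the differences is a test.

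The differences of the means were also taken within the 2 sets of title numbers. For Hbb, libraries at 30 mg/kg minus controls 1 to 4 gave -3.34, and libraries at 20 mg/kg minus controls 5 to 7 gave -1.88. The same differences were -3.42 and -1.76 for Hbb-b1, -1.43 and -1.47 for Hba-a3, and -0.45 and -0.34 for Alas2. Over all controls the differences of the means were -3.55 and -1.61 for Hbb, -3.41 and -1.79 for Hbb-b1, -1.40 and -1.51 for Hba-a3, and -0.28 and -0.57 for Alas2, so the order of the doses turned round for Alas2. The means of control libraries 1 to 4 and 5 to 7 were 10.31 and 10.80 for Hbb, 10.33 and 10.29 for Hbb-b1, 7.38 and 7.31 for Hba-a3, and 5.32 and 4.92 for Alas2.

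The 4 libraries at 30 mg/kg fell apart by gene. Libraries 1 and 2 were low in all 3 globin genes. Library 4, the male, was the highest in all 4 genes. Library 3 had Hbb at 6.45, close to libraries 1 and 2, but Hbb-b1 at 7.84 and Hba-a3 at 6.86, well above them. The difference of Hbb minus Hbb-b1 within an array was -1.70 relative to the median of all arrays in that library, and otherwise between -0.93, in control library 4, and 0.39. The difference of Hbb minus Hba-a3, taken the same way, was -1.90, -1.74 and -3.29 in libraries 1 to 3 at 30 mg/kg and -0.47 in library 4. In all other libraries it lay between -0.50 and 0.96. Without libraries 3 and 4 at 30 mg/kg, an exclusion chosen after the data were seen, the BEZ235 minus control difference was -2.30 for Hbb, -2.55 for Hbb-b1, -1.72 for Hba-a3 and -0.52 for Alas2.

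Further probe sets of the globin clusters carry several gene symbols and stand outside the 4 genes. Probe set 10724311, annotated to more than 1 beta-type gene, averaged 8.18 ± 1.41 in BEZ235 libraries (SD, n = 10) and 10.40 ± 0.48 in control libraries (SD, n = 7). Probe set 10741756, annotated to more than 1 alpha-type gene, averaged 10.04 ± 1.55 in BEZ235 libraries and 12.23 ± 0.37 in control libraries. Its libraries at 30 mg/kg had 7.003, 9.11, 8.16 and 11.95, so that library 3 was low here, whereas in Hba-a3 it was close to library 4. Probe set 10741778, of the same kind, had 6.75, 8.94, 7.76 and 11.87. Both were lower at 30 than at 20 mg/kg in their means, at 9.06 against 10.69 and at 8.83 against 10.60, a step that Hba-a3 did not have. The BEZ235 minus control difference of the means was -2.20 for 10741756, -2.28 for 10741778 and -2.21 for 10724311. It was -2.38 for Hbb, -2.43 for Hbb-b1 and -1.47 for Hba-a3, so the smaller difference of Hba-a3 was not shared by these alpha-type probe sets.

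**Figure D3:**
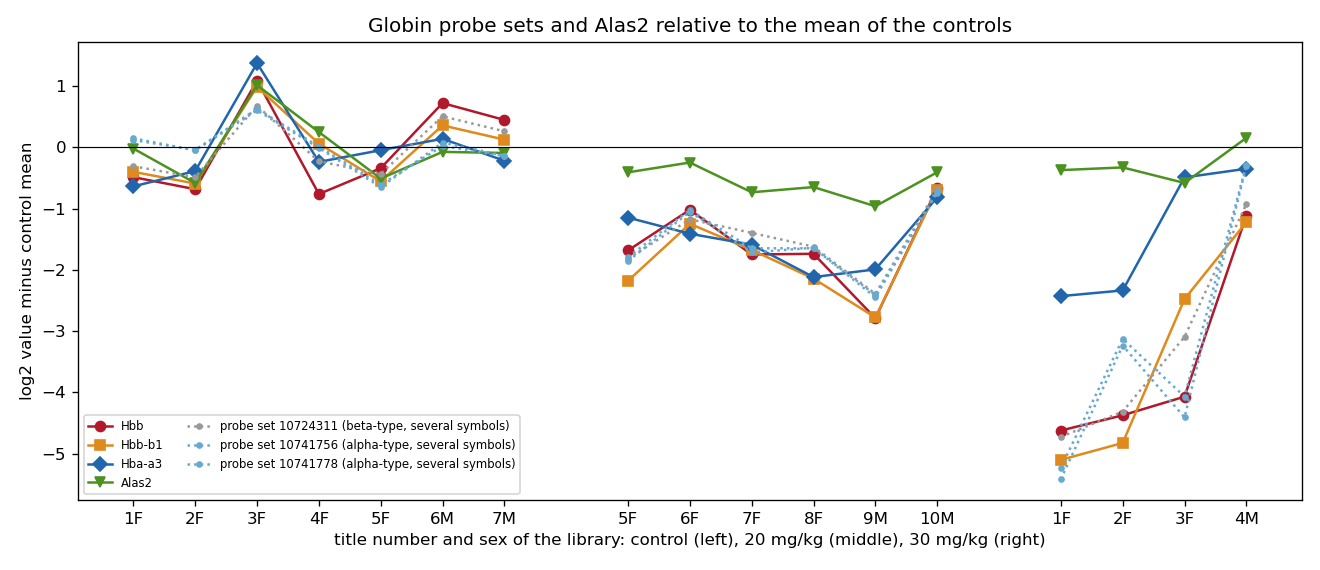
Value of each globin probe set and of Alas2 in each library minus its control mean (log2), with control libraries on the left, 20 mg/kg in the middle and 30 mg/kg on the right, labelled by title number and sex; lines only join the points of a probe set, as libraries of a group have no order. The probe sets spread most in libraries 1 to 3 at 30 mg/kg, where Hba-a3 lies above Hbb and, in library 3, Hbb-b1 does too, and library 4 at 30 mg/kg lies near library 10 at 20 mg/kg.

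Over all 17 arrays Hbb and Hbb-b1 had a Pearson r of 0.95, Hbb-b1 and Hba-a3 of 0.86, and Hbb and Hba-a3 of 0.77. Alas2 had r values of 0.69 with Hba-a3 and 0.53 with each beta-type gene. These values include the differences between groups and are a description. Within the control group (n = 7) Hbb and Hba-a3 had r = 0.78 (exact permutation p = 0.026, adjusted 0.108) and rho = 0.82 (exact permutation p = 0.034, adjusted 0.108). Without libraries 3 and 6, the farthest from the median in Hbb, r was 0.27 (n = 5). Leaving these out narrows the range of Hbb, which can lower r by itself, and rho was not taken again. Within the 20 mg/kg group (n = 6) Hbb and Alas2 had r = 0.86 (exact permutation p = 0.036, adjusted 0.108) and rho = 0.94 (exact permutation p = 0.017, adjusted 0.108), with r = 0.83 without libraries 9 and 10. The other 4 pairs had r between 0.59 and 0.77 with adjusted exact permutation p-values between 0.21 and 0.22. None of the 12 coefficients passed the adjustment, and the sets of title numbers are too small for values within them.

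Sex was the comparison that the choice of genes had not used. Male minus female was 1.06 ± 0.56 for Hbb (SE; limma adjusted p = 0.37), with male means of 9.0 in BEZ235 libraries and 11.11 in control libraries against female means of 7.77 and 10.29. It was 0.88 ± 0.55 for Hbb-b1 (adjusted p = 0.46), 0.33 ± 0.35 for Hba-a3 (adjusted p = 0.67) and -0.0045 ± 0.21 for Alas2 (adjusted p = 0.99). Thus 0 of the 4 genes passed in limma's test, and 0 of 4 had an unadjusted p under 0.05, against 35 of 14506 genes called, or 0.241%. The BEZ235 minus control difference of the means was -2.11 in males and -2.52 in females for Hbb, -1.81 and -2.71 for Hbb-b1, -1.01 and -1.66 for Hba-a3, and -0.32 and -0.51 for Alas2. The interaction of treatment and sex had adjusted p-values of 0.94 for Hbb, 0.85 for Hbb-b1, 0.84 for Hba-a3 and 0.93 for Alas2, with 1 gene, or 0.00689%, called over all genes. With 5 male libraries, effects of the size of the SEs could not be resolved.

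The other genes of the pathway gave the frame for these values. Of 50 further genes with a value, 0 were called in BEZ235 against control by limma, 7 had an unadjusted p under 0.05, and the median change was -0.03. These were embryonic and fetal globin, heme synthesis and erythroid genes. No further adult globin gene was among them, since those had no value under a single symbol. Over all genes 215 of 14506, or 1.48%, were called, 2095 had an unadjusted p under 0.05, and the median change was -0.0016. The called genes numbered 46, 71, 110 and 141 without control library 7, 6, 1 and 4 in that order. They numbered 97, 119 and 139 without library 10, 8 and 7 at 20 mg/kg, and 122 without library 1 at 30 mg/kg. Means of 20 of the 50 genes lay below the median of the arrays, where a change would be compressed. With the set of title numbers as a further term, 4 of the 50 genes were called, all lower, against 4.91% of all genes. They were Alad (-0.68 ± 0.17, adjusted p = 0.028), Glrx5 (-0.62 ± 0.13, adjusted p = 0.014), Bpgm (-0.55 ± 0.12, adjusted p = 0.016) and Lmo2 (-0.41 ± 0.11, adjusted p = 0.035).

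Of the further beta-type genes, Hbe1, Hbe2 and Hbg1, embryonic and fetal forms, averaged 3.87, 3.07 and 3.38 in BEZ235 libraries and 3.77, 3.17 and 3.37 in control libraries, near or under the lower quartile of the arrays. Cygb, Ngb and Mb, globins of other tissues, had differences of -0.06, -0.23 and -0.10 with adjusted p-values between 0.76 and 0.95.

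Among 7 heme synthesis enzymes other than Alas2, 0 were called and the median change was 0.06. Alas1, the form that most tissues use for the same first step, averaged 9.13 ± 0.67 in BEZ235 libraries (SD, n = 10) and 8.99 ± 0.53 in control libraries (SD, n = 7). Alad, the enzyme of the second step, differed by -0.60 ± 0.19 (limma adjusted p = 0.13) and was below the control mean in 9 of 10 BEZ235 libraries. Without library 5 at 20 mg/kg it passed, at -0.70 ± 0.17 (adjusted p = 0.046). Fech, which inserts iron into the ring, differed by -0.24 ± 0.16 (adjusted p = 0.56), and Urod by 0.17 ± 0.21 (adjusted p = 0.81). Alas1 was higher at 30 than at 20 mg/kg by 0.93 ± 0.28 (adjusted p = 0.038), a comparison in which 12.1% of all genes were called, 1183 lower and 569 higher, or 960 lower and 936 higher after centring the arrays on their medians. In that comparison 4 of the 50 genes were called, or 8.0%: Alas1, Klf1 and Epb42 higher and Bpgm lower. Alas1 was called there in 10 of 17 fits that left out a library, and missed without libraries 6, 7, 8 or 9 at 20 mg/kg or 2, 3 or 4 at 30 mg/kg (0.80 to 0.98; adjusted p = 0.057 to 0.129). It also missed among females alone (0.86 ± 0.34, adjusted p = 0.15) and without both libraries 3 and 4 at 30 mg/kg (0.86 ± 0.38, adjusted p = 0.25).

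Genes that serve heme synthesis gave 0 calls of 9, genes of heme export and breakdown 0 of 12, and genes of iron uptake and storage 0 of 12. The mitochondrial iron importer Slc25a37 differed by -0.15 ± 0.18 (limma adjusted p = 0.79), Glrx5, which builds iron-sulfur clusters, by -0.51 ± 0.20 (adjusted p = 0.23), and Clpx, which activates Alas, by -0.21 ± 0.12 (adjusted p = 0.48). Hpx, the plasma heme scavenger, had the largest of these estimates in size, -0.99 ± 0.38 (adjusted p = 0.23), and the heme transporter Slc48a1 differed by -0.46 ± 0.14 (adjusted p = 0.11). Slc48a1 was called without control library 5 (-0.57 ± 0.12, adjusted p = 0.035), and Hebp1, a heme-binding protein, without library 2 at 30 mg/kg (0.67 ± 0.16, adjusted p = 0.042). The ferritin chains Fth1 and Ftl1 were bright in all libraries, with differences of -0.09 ± 0.06 and 0.21 ± 0.08 (adjusted p = 0.58 and 0.23).

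Erythroid transcription factors gave 0 calls of 11, with a median change of -0.10 and 7 means below the median of the arrays. The list's median lay between 4.40 and 4.90 in BEZ235 libraries and between 4.44 and 5.10 in control libraries. Gata1 averaged 3.81 and Klf1 4.71 in BEZ235 libraries, against 3.95 and 4.62 in control libraries. Lmo2, a partner of GATA1 and TAL1 that endothelial cells also express, differed by -0.35 ± 0.14 (limma adjusted p = 0.23). Red cell membrane genes gave 0 calls of 12, and late erythroid genes 0 of 9, and 5 of the 12 and 4 of the 9 had means below the median of the arrays. Slc4a1 (band 3) averaged 3.86, Rhag (Rh-associated glycoprotein) 3.22 and Ahsp (alpha-globin chaperone) 3.06 in BEZ235 libraries, against 3.95, 3.25 and 3.22 in control libraries. These 3 genes lay near or under the lower quartile in both groups. Others of the lists, which many tissues express, were bright, such as Prdx2, a peroxidase, with a mean of 11.11 over all libraries, Epb41 (protein 4.1) with 8.04 and Tmod1 (tropomodulin) with 7.98. Klf1, the CACCC-binding factor, was higher at 30 than at 20 mg/kg (0.40 ± 0.12, limma adjusted p = 0.034), as was Epb42, a membrane protein of red cells (0.49 ± 0.14, adjusted p = 0.033). Neither call was followed through the fits that left out a library, in which 321 to 2172 of all genes were called between the doses. Bpgm, which makes the 2,3-bisphosphoglycerate that lowers hemoglobin's oxygen affinity, was lower at 30 than at 20 mg/kg (-0.88 ± 0.14, adjusted p = 0.003), also in all 17 fits that left out a library, but not without both libraries 3 and 4 at 30 mg/kg (-0.70 ± 0.17, adjusted p = 0.068).

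**Figure D4:**
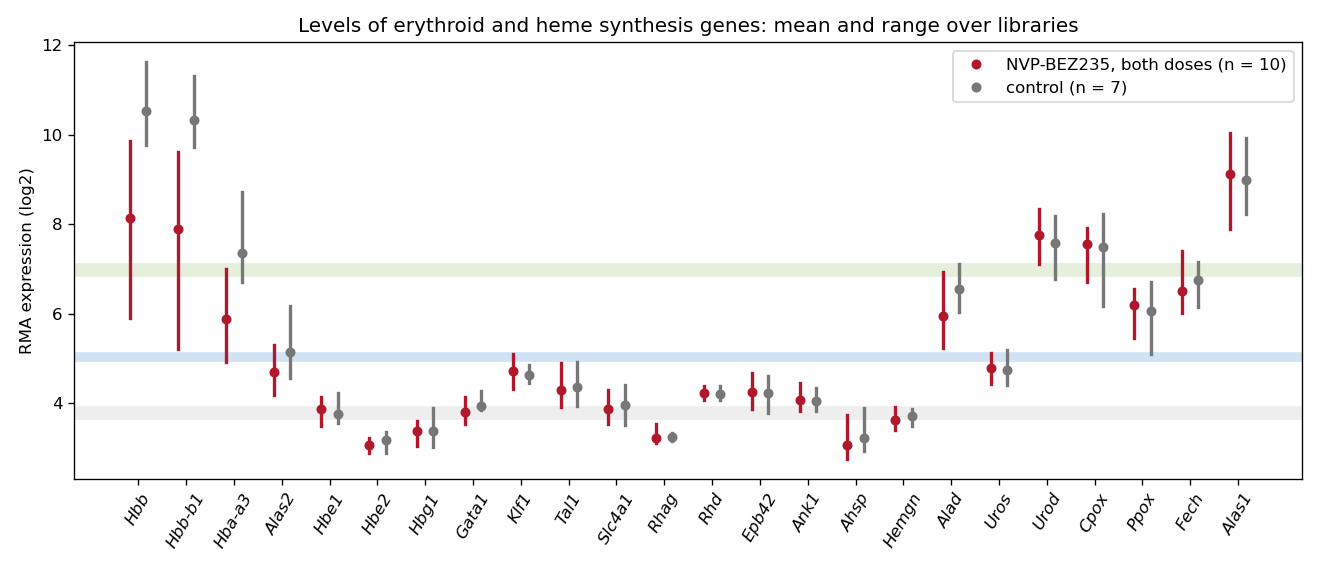
Mean (point) and range (line) of RMA expression (log2) in BEZ235 libraries (left of each pair, n = 10) and control libraries (right, n = 7) for the 4 genes and other globin, erythroid and heme synthesis genes; bands mark the ranges of the arrays' lower quartile, median and upper quartile. Probe sets differ in affinity, so levels are to be read against the bands and not between genes; Hbb to Alas2 have lower means in BEZ235 libraries, while Hbe1 to Hemgn stay low in both groups.

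The genes that flank the alpha-globin cluster were measured as neighbours on the chromosome. Luc7l, a splicing factor gene that lies on the other side of Hba-a3 from Hba-a2, rose, at 8.16 ± 0.40 in BEZ235 libraries (SD, n = 10) against 7.22 ± 0.49 in control libraries (SD, n = 7), a difference of 0.93 ± 0.17 (SE; limma adjusted p = 0.013). It was above the control mean in 10 of 10 BEZ235 libraries, opposite in direction to Hba-a3. Control libraries 1 to 4 lay between 6.57 and 7.07 and control libraries 5 to 7 between 7.575 and 7.91. The latter overlapped libraries 1 to 3 at 30 mg/kg (7.76 to 7.84). With the set of title numbers as a term, Luc7l differed by 0.86 ± 0.14 (adjusted p = 0.003). Of the 6 listed genes with a value Luc7l was the 1 called. Fam234a, beyond Luc7l, differed by -0.12 ± 0.14. Beyond the far end of the cluster Nprl3 differed by 0.05 ± 0.19, Mpg, a DNA repair gene, by 0.19 ± 0.10 (adjusted p = 0.38) and Rhbdf1 by 0.04 ± 0.12. Luc7l was called in all 17 fits that left out a library, but not among females alone (0.93).

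Other cells that reach tissue with blood, or form its vessels, were read from lists of marker genes, since their markers could move with the globin genes. Lymphocyte markers had negative estimates in 8 of 8 genes, with a median change of -0.46. In limma's test 5 of the 8 had an unadjusted p under 0.05, against 2095 of 14506 genes, and 2 were called lower, against 0.965% of all genes. These 2 were Cd2, an adhesion molecule of T cells, with a difference of -0.49 ± 0.08 (limma adjusted p = 0.01), and Cd3d, a chain of the T cell receptor complex, with -0.99 ± 0.24 (adjusted p = 0.045). The median of the 8 markers lay between 3.95 and 4.21 in BEZ235 libraries and between 4.34 and 4.80 in control libraries, and 6 of the 8 had means below the median of the arrays. Cd3e, called without control library 5 (-0.60 ± 0.12, adjusted p = 0.023), and Cd3g, called with the set term (-0.73 ± 0.19, adjusted p = 0.034), are further chains of that complex. Cd3d was called in 3 of the 17 fits that left out a library, those without control library 1, control library 2 or library 4 at 30 mg/kg, and its difference lay between -1.13 and -0.81 over the 17. Endothelial markers had 1 call of 11: Flt1, a VEGF receptor, rose by 0.74 ± 0.17 (adjusted p = 0.033), and was called in 10 of those 17 fits. It was not called without control libraries 4, 5, 6 or 7, libraries 1 or 3 at 30 mg/kg, or library 10 at 20 mg/kg (0.68 to 0.72). At 30 against 20 mg/kg, where 12.1% of all genes were called, 2 of the 11 endothelial markers were called, both higher. They were Flt1 (0.58 ± 0.17, adjusted p = 0.036) and Cdh5 (0.69 ± 0.13, adjusted p = 0.005). Platelet markers gave 0 calls of 6, with list medians of 4.21 to 4.80 in BEZ235 libraries and 4.16 to 4.74 in control libraries. Neutrophil markers gave 0 of 12, with 3.77 to 4.23 against 3.90 to 4.40, and macrophage markers 0 of 12, with 6.17 to 7.37 against 6.97 to 7.27. All together 4 of 161 listed genes outside the 4 were called, or 2.48%, and 0 of 161 among females alone, where 12 of all genes were called. The part of blood or cell content in the globin values was not tested.

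**Figure D5:**
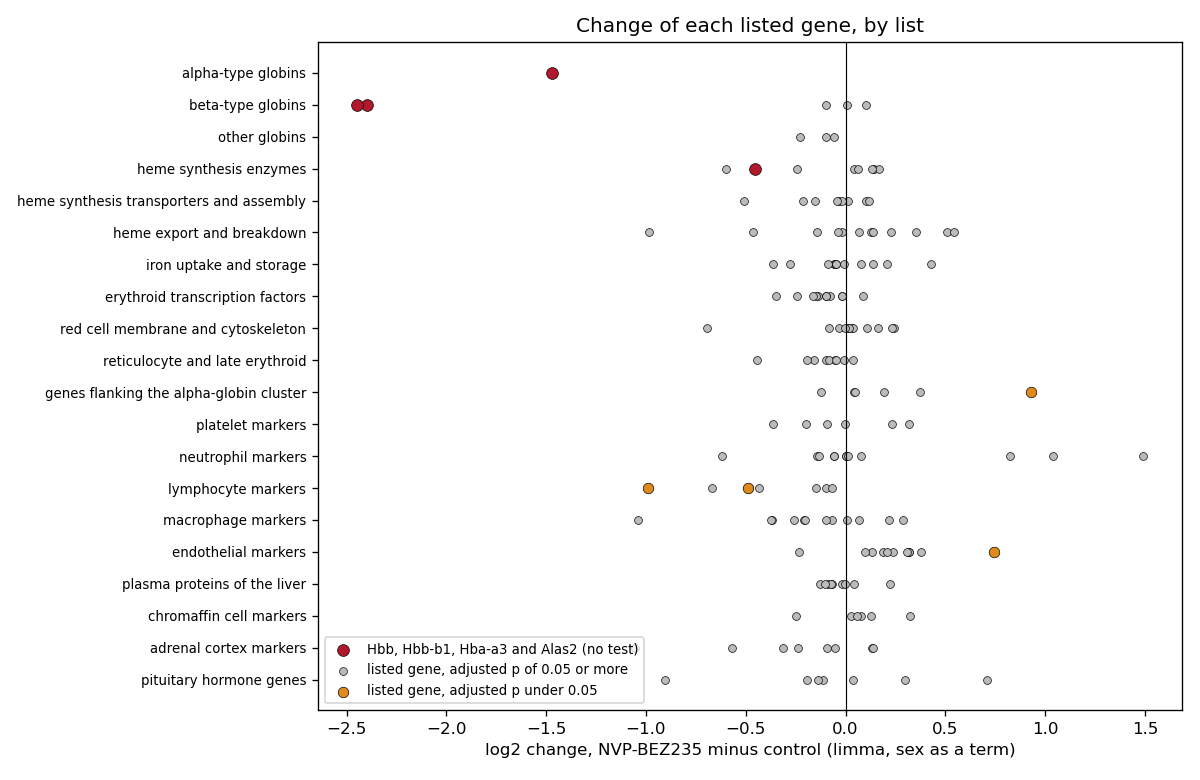
Change of each listed gene in BEZ235 minus control (log2, limma with sex as a term), by list; red points are Hbb, Hbb-b1, Hba-a3 and Alas2, which were not tested, orange points passed an adjusted p of 0.05 and grey points did not. The 3 globin genes lie between -2.45 and -1.47, while the other red cell and heme genes lie between -0.99 and 0.54, and the orange points are Luc7l, Cd2, Cd3d and Flt1.

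The genes whose pattern was most like the mean of the 4 over 17 arrays, globins left out, were Ptprc (r = 0.85), Naalad2 and Tmem151a (0.82 each), Kpna2 (0.80) and Irgm (0.79). Ptprc, the leukocyte common antigen CD45, differed by -1.25 ± 0.16, Irgm by -1.25 ± 0.28 and Kpna2, a nuclear import carrier, by -0.91 ± 0.20 in BEZ235 minus control. These values are no test, since likeness to genes that differ between the groups fixes their direction. Over deviations from the group means, which leave the group differences out, the most alike were Or11h4c (r = 0.88), Btg1 and Il1b (0.87 each), and Or5af1b and Aloxe3 (0.86 each). Or11h4c and Or5af1b, annotated as odorant receptors, averaged 3.08 and 3.69, at or below the lower quartile. Different genes thus led the likeness with and without the group differences.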

How the data were processed

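Total RNA was measured on 17 Affymetrix arrays. The deposited values are on a log2 scale; RMA (background correction, normalization between arrays, summary per probe set) and Affymetrix Expression Console 1.3.0.187 are named by the submitters' processing notes. Values were used as deposited, without a filter on low values. The table held 29214 probe sets, of which 15310 had 1 gene symbol, 323 several and 13581 none listed; probe sets with several symbols were not named. Taking the brightest probe set per symbol left 14506 genes.

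Linear models were fitted over all genes with limma 3.58.1 (R 4.3.3), by its moderated two-sided test with Benjamini-Hochberg adjustment at 0.05, which was tested on simulated data. BEZ235 against control and male against female came from a fit with treatment and sex, the doses from a 3-group fit with sex, and the interaction from a product term. The 4 genes and the 20 lists (206 genes, 165 with a value) were chosen with earlier results of these data known. Of each list, genes past the threshold and up to 3 with the smallest p are named, plus, chosen after their values were seen, defining markers of red cells and tissue, S100a9 and some of the genes that passed at an alternative setting. Genes most alike were those with the highest r among established symbols. The small number of arrays limits precision. Alternatives tried were no sex term, females only, median centring, other eBayes settings, averaged probe sets, a filter on dim genes, the set of title numbers, a replicate block and leaving out libraries.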

Additional observations from a re-analysis of the deposited data

Results flagged for a closer look

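In groups of 4 to 10 libraries, 5 values stood far from the rest of their group, with a gap to the nearest library that was large against the group's range. Chance gives such a value in about 1 in 20 groups, and 33 groups were examined. Hbb was 9.41 in library 4 at 30 mg/kg, where the next library had 6.45. Hba-a3 was 8.72 in control library 3, where the next had 7.49. Luc7l was 8.37 in library 4 at 30 mg/kg (next 7.84) and 9.10 in library 10 at 20 mg/kg (next 8.35), and Flt1 was 8.84 in that library (next 8.31). Library 4 at 30 mg/kg is thus highest in both Hbb and the neighbour of the alpha-globin cluster. No cause of these values was tested.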

How the results depend on the processing

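The BEZ235 minus control differences of Hbb, Hbb-b1, Hba-a3 and Alas2 kept their sign and moved by less than 1 residual SD in all 103 refits. That margin is wide: the residual SD was 1.17 for Hbb, and for Alas2 it was 0.43, close to its whole difference of -0.45. The refits share most libraries and the genes were chosen on this contrast, so this is a description and no test. Leaving out 1 library gave -2.59 to -2.16 for Hbb, -2.61 to -2.17 for Hbb-b1, -1.60 to -1.22 for Hba-a3 and -0.55 to -0.28 for Alas2. Alas2 has no value under the filter on dim genes, which removes it. The 215 genes called in BEZ235 against control became 100 without the sex term, 12 among females, 138 under that filter, 712 with the set of title numbers as a term, and 46 to 249 when 1 library was left out. The 1752 genes called between 30 and 20 mg/kg became 405 among females, 51 without libraries 3 and 4 at 30 mg/kg (chosen after seeing the data) and 321 to 2172 when 1 library was left out, the lowest without library 4 at 30 mg/kg. The 35 genes called by sex became 64 after median centring, 128 with the set term, 21 under the filter, 215 without libraries 3 and 4 at 30 mg/kg and 0 to 181 when 1 library was left out. The 1 gene called for the interaction became 0 with the set term, under the filter, with the replicate block and without libraries 3 and 4, and 0 to 14 when 1 library was left out. When the 2 farthest libraries were left out, the correlation of Hbb with Hba-a3 in controls dropped to 0.27 (exact permutation p = 0.7, n = 5). That of Hbb with Alas2 at 20 mg/kg was then 0.83 (n = 4). With 4 libraries an exact permutation p cannot fall under 0.05, so no conclusion is drawn from its p. Title numbers do not pair libraries: same-numbered libraries had correlated deviations of -0.18 to 0.08. With the replicate block 231 genes were called, Hbb differed by -2.62, Hbb-b1 by -2.70, Hba-a3 by -1.32 and Alas2 by -0.34, and Aif1 and Pf4 joined the called markers. The causes of the moved counts were not tested. Precision is set by 17 arrays, and signals near the lower quartile are compressed. The set term and the block could not be fitted for 30 against 20 mg/kg, since each dose has its own numbers.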

Other observations

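Lcn2, S100a8 and S100a9, genes of neutrophil granules and cytosol among the 12 listed neutrophil markers, were high in libraries 3 and 4 at 30 mg/kg. These libraries had the highest Hba-a3 of that dose. Library 3 was nevertheless low in Hbb (6.45) and in the alpha-type probe sets 10741756 (8.165) and 10741778 (7.76). Mpo, Elane, Camp, Ngp, Cxcr2, Mmp8 and Ltf of the same list differed by -0.14 to 0.08 in BEZ235 minus control. Lcn2 was 12.03 and 12.16 in libraries 3 and 4, against 7.88 and 9.36 in libraries 1 and 2, and at most 7.96 in control libraries. S100a8 was 8.22 and 7.03 in libraries 3 and 4, against 4.46 and 4.09 in libraries 1 and 2. S100a9 was 8.62 and 6.99, against 4.92 and 4.81. Library 10 at 20 mg/kg, which had the highest Hbb of the BEZ235 libraries, also had Lcn2 at 10.05. Over both doses Lcn2 differed from control by 1.49 ± 0.61 (limma adjusted p = 0.27). Retnlg, another neutrophil gene, differed by -0.62 ± 0.17 (adjusted p = 0.077), and Csf3r, the receptor of the neutrophil growth factor, by -0.06 ± 0.15 (adjusted p = 0.91). At 30 against 20 mg/kg, 2 of the 12 markers were called, both higher: Csf3r (0.58 ± 0.14, adjusted p = 0.014) and Lcn2 (2.25 ± 0.61, adjusted p = 0.027). Csf3r averaged 4.22 over all libraries, below the medians of the arrays. In that comparison 16 of 161 listed genes were called, or 9.94%, against 12.1% of all genes.

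Among the macrophage markers Aif1 differed by -1.04 ± 0.32 (adjusted p = 0.12), and by -1.25 ± 0.15 with the set of title numbers as a term (adjusted p = 0.00022). It was lower at 30 than at 20 mg/kg (-1.08 ± 0.34, adjusted p = 0.048), a call kept in 8 of 17 fits that left out a library, over which it lay between -1.30 and -0.97. In all, 4 of 12 macrophage markers were called lower at 30 than at 20 mg/kg, against 8.16% of all genes. The others were the complement genes C1qa (-1.12 ± 0.28, adjusted p = 0.019) and C1qb (-0.60 ± 0.15, adjusted p = 0.021) and the hemoglobin scavenger receptor Cd163 (-1.02 ± 0.26, adjusted p = 0.021). The calls of C1qa, C1qb and Cd163 were not followed through the fits that left out libraries. Of all calls between the doses named here, only those of Alas1, Bpgm, Aif1 and Pf4 were. Of the platelet markers Pf4, a chemokine of platelet granules, averaged 7.70 ± 1.08 in BEZ235 libraries (SD, n = 10) and 8.06 ± 0.53 in control libraries (SD, n = 7), and it was lower at 30 than at 20 mg/kg (-1.84 ± 0.32, adjusted p = 0.005), a call kept in 17 of 17 such fits and missed without both libraries 3 and 4 at 30 mg/kg (-1.74 ± 0.38, adjusted p = 0.06).

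Of the tissue markers, Mc2r, the adrenal receptor for corticotropin, differed between BEZ235 and control by -1.05 ± 0.29 (adjusted p = 0.083). This difference passed with the set term (-0.92 ± 0.24, adjusted p = 0.038), without library 4 at 30 mg/kg (-1.18 ± 0.27, adjusted p = 0.046) and without both libraries 3 and 4 (-1.26 ± 0.27, adjusted p = 0.037). Leaving out libraries at 30 mg/kg gives the 20 mg/kg group more weight in it. Mc2r averaged 10.17 in control libraries, 8.65 at 20 mg/kg and 9.77 at 30 mg/kg. It was called higher at 30 than at 20 mg/kg (1.03 ± 0.30, adjusted p = 0.034). Th differed by 0.32 ± 0.12 (adjusted p = 0.2) and passed with the set term (0.37 ± 0.10, adjusted p = 0.042).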
